A study of Mus musculus with 12 samples.

Results

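The genes described here are 9 genes of the major histocompatibility complex (MHC) class I pathway, which shows pieces of the proteins made inside a cell to T cells at its surface. They were taken by symbol from the authors' comparison of vitrified with fresh mouse ovarian follicles, and all 9 were found among its 11806 genes. They are the heavy chain genes H2-K1 and H2-D1, the heavy chain pseudogene H2-K2, the light chain gene B2m, the peptide transporter genes Tap1 and Tap2, the tapasin gene Tapbp, the peptide-trimming enzyme gene Erap1 and the class I transactivator gene Nlrc5. All 9 had an adjusted p, which the table leaves out for some genes with totals of at most 59.4. The set was chosen by symbol with the fold changes and p-values of this same comparison in view, so these values are given as a description and not as evidence that the pathway changed.

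The mice were CD-1 (an outbred stock) aged 16 days. Both groups of 6 follicles were held in beads of 0.5% alginate during a culture of 8 days, in medium that contained rFSH (recombinant follicle-stimulating hormone) at 10 mIU/mL. The vitrified follicles had first been frozen without ice crystals and the fresh ones had not, and each follicle gave 1 RNA library. All values come from the authors' deposited table, where a gene has 1 pooled total for the 12 libraries beside its fold change and p, and levels of single follicles are therefore not shown. Which mouse each follicle came from is not in the labels. The p-values thus take follicles as independent, and effects of the group and of the animal cannot be told apart. In a whole follicle, fewer cells of a type and less RNA per cell cannot be told apart either.

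Every class I molecule at the cell surface is a heavy chain bound to the light chain beta-2 microglobulin and to a short peptide. The proteasome cuts proteins into peptides, the TAP transporter carries them into the endoplasmic reticulum, ERAP1 trims them, and tapasin with the chaperones calreticulin and ERp57 helps to load them. NLRC5 is a nuclear protein that binds, with RFX, CREB and NF-Y factors, to the promoters of these genes, and interferon raises the pathway through factors such as IRF1. Heavy chain genes stand in families of close copies on mouse chromosome 17 and are among the most polymorphic genes of the mouse, so the likeness of their sequences is shown before the values.

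H2-K1, on chromosome 17 from 33996017 to 34000347 in GRCm38 (mm10), and H2-K2, from 33974659 to 33978827, lie side by side on the minus strand. H2-D1 lies on the plus strand from 35262730 to 35267499. GENCODE release 21 of the mouse calls H2-K2 a transcribed unprocessed pseudogene, a copy of a heavy chain gene that is transcribed without an annotated protein. Over 1350 aligned bases an annotated H2-K2 transcript was 88.9% identical to the H2-K1 transcript of 1619 bases. H2-D1 was 90.7% identical to H2-K1 over 1472 bases. Gaps are left out of these shares, and the alignment of H2-K1 held 423 gap bases with H2-K2 and 41 with H2-D1. Of exons 2 to 4, the last differed least between the copies. Exon 2 of H2-K1, which codes for part of the peptide groove, was 87.8% identical in H2-K2 and 91.1% in H2-D1, whereas exon 4, which codes for the domain next to the membrane, was 94.5% and 96.0% identical. In exon 3, the other part of the groove, only 176 of the 276 bases of H2-K1 had an aligned base in H2-K2, and these were 84.7% identical. The stretches below show bases 61 to 150 of each of these exons, 5′ to 3′ on the coding strand, with capitals where a base of H2-K2 or H2-D1 differs from H2-K1. In exon 2 (H2-K1 at chr17:33999854-33999943, minus strand) H2-K2 differs at 13 bases and H2-D1 at 8.
H2-K1 exon 2: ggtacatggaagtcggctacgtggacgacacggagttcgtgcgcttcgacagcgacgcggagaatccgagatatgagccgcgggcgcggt
H2-K2 exon 2: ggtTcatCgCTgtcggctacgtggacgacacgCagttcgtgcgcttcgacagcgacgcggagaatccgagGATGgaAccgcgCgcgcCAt
H2-D1 exon 2: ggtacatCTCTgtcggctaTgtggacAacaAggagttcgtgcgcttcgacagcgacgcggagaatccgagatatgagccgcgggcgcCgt
In exon 4 (H2-K1 at chr17:33997411-33997500, minus strand) the same length holds 2 differences in H2-K2 and 1 in H2-D1 from H2-K1.
H2-K1 exon 4: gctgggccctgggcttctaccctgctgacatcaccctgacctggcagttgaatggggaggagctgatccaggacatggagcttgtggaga
H2-K2 exon 4: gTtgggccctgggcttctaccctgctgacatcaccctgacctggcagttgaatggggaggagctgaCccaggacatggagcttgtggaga
H2-D1 exon 4: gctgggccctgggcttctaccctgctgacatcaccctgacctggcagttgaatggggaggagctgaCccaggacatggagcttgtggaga

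Exact sharing was measured as the share of a gene's transcript windows whose letters occur, on either strand, in a transcript of another annotated gene. A window with any difference was not counted, and the alleles of the CD-1 mice, which can differ from the reference, were not looked at. How many reads could be counted under another gene is therefore not measured by it. With windows of 50 bases this share was 9.63% for H2-K1, 9.38% for H2-K2 and 12.8% for H2-D1. It fell to 0.957%, 1.60% and 3.59% with windows of 100 bases. H2-K2 shared only 15 windows of 50 bases with H2-K1, or 0.852% of its own. It shared most with Gm11127 (98 windows), which is not among the authors' genes. H2-T22 (79 windows), H2-Q4 and H2-T23 (62 each) and H2-D1 (60 windows) also came before H2-K1. B2m shared none of its 811 windows. Tapbp shared 23.2% of its windows, mostly with the antisense gene Gm19412, Erap1 10.7% with the calpastatin gene Cast on the opposite strand, and Tap2 11.6%, mostly with the opposite-strand gene Gm15821. The exons of Tap1 overlap those of the immunoproteasome gene Psmb9, on the opposite strand, by 212 bases. With the authors' use of strand not given in the sources used here, reads in these overlaps are uncertain.

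**Figure D1:**
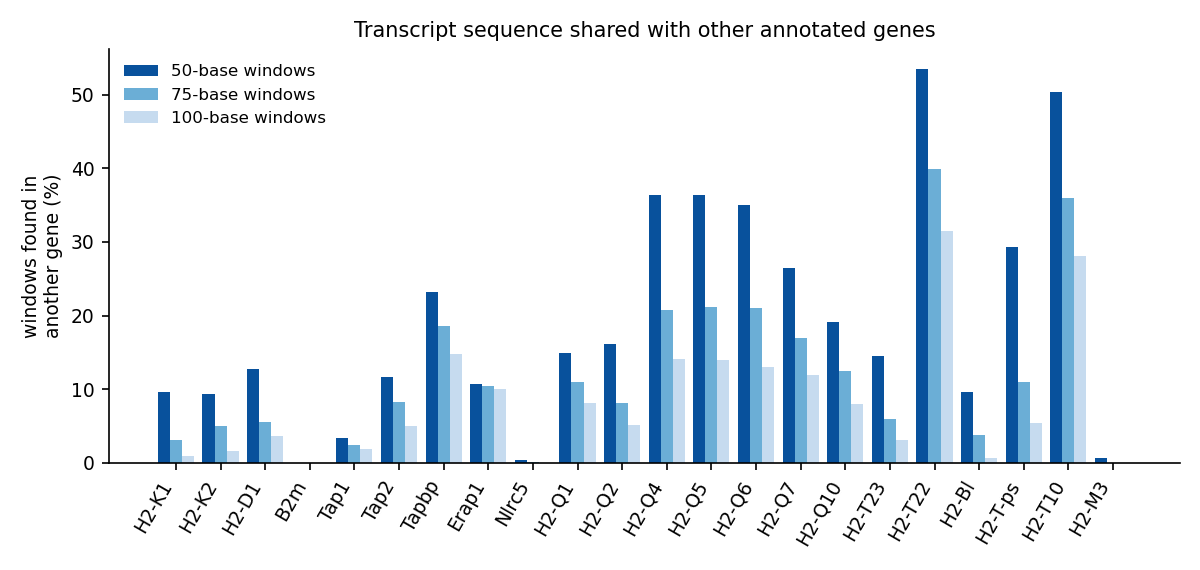
Share of each gene's transcript windows (percent, vertical axis) that occur in another annotated gene, for windows of 50, 75 and 100 bases, over the 9 antigen presentation genes and 13 other class I heavy chain genes. H2-T22 and H2-T10 stand highest, at 53.5% and 50.4% of 50-base windows, and B2m is at 0.

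In vitrified follicles the pseudogene H2-K2 stood higher and narrowly passed the threshold on the adjusted p. Its neighbour H2-K1, a main classical heavy chain gene, stood lower without passing that threshold. H2-K2 was 3.31-fold higher according to the authors' deposited table, which is 1.73 on the log2 scale (95% interval 0.81 to 2.64; adjusted p = 0.043). For H2-K1 the authors' deposited table holds a 1.52-fold lower level, or a log2 fold change of -0.61 (-1.01 to -0.21; unadjusted p = 0.0029, adjusted p = 0.22). H2-D1, the other classical heavy chain gene, stood 1.16-fold higher (0.21 in log2, from -0.32 to 0.74; adjusted p = 0.999) by the authors' deposited table. The intervals of H2-K2 and H2-K1 lie on opposite sides of 0, and that of H2-D1 spans it. The differences between these genes were not tested.

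The 6 genes that are not heavy chains did not pass. B2m (chromosome 2, 122147686 to 122153083) stood at a log2 fold change of 0.06 (-0.42 to 0.53) by the authors' deposited table. For the transporter, a pair of proteins, the authors' deposited table lists -0.08 (-0.64 to 0.47) for Tap1, on chromosome 17 from 34187553 to 34197225, and -0.16 (-0.86 to 0.54) for Tap2, from 34203527 to 34216321. Tapbp (chromosome 17, 33915899 to 33929292), which bridges the transporter and the empty heavy chain, had the narrowest interval of the 9 at -0.11 (-0.38 to 0.16) by the authors' deposited table. The authors' deposited table puts Erap1 (chromosome 13, 74639568 to 74693201) at -0.35 (-0.90 to 0.20). The intervals of these 5 genes and of H2-D1 lie within 2-fold in either direction, 6 of the 9, as do those of 69.1% of all tested genes. Nlrc5 (chromosome 8, 94434356 to 94527272) stood at 0.63 by the authors' deposited table, and its interval, -0.40 to 1.66, holds a 2-fold higher level. Its total of 76.5, or 6.37 per library, was the lowest of the 9.

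**Figure D2:**
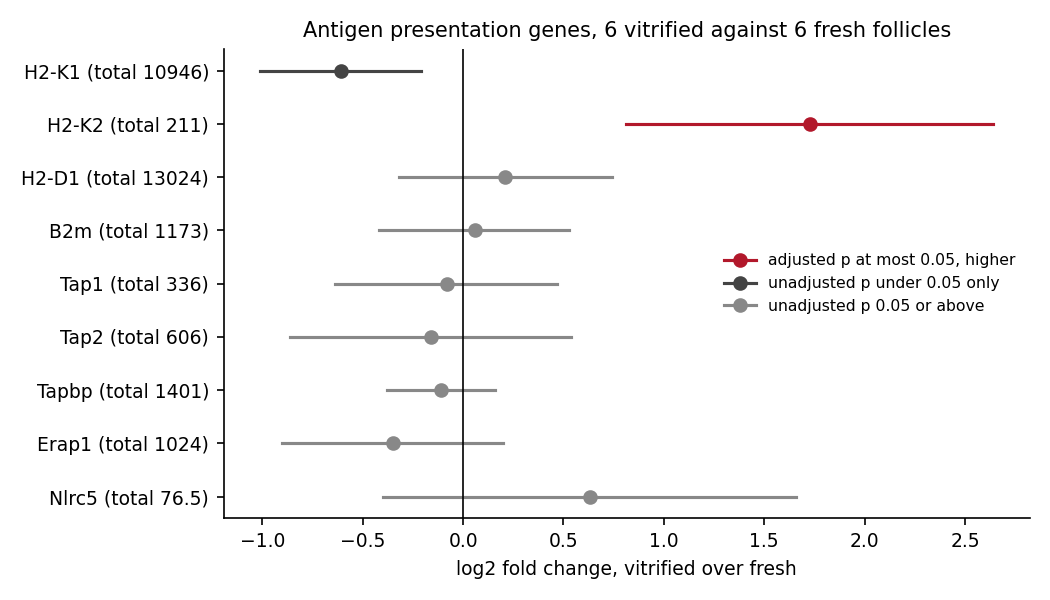
Log2 fold change of vitrified over fresh follicles (horizontal axis) for the 9 genes in the authors' deposited table, with 95% intervals derived from each fold change and its p, and the total over the libraries beside each name. H2-K2 at 1.73 and H2-K1 at -0.61 have intervals that do not reach 0, and the other 7 span it.

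Of the 9 genes, 1 passed an adjusted p of 0.05 and it was higher. Among the 10963 tested genes 0.529% passed, 0.246% as higher and 0.283% as lower. H2-K2 and H2-K1, in opposite directions, were the 2 of the 9 with an unadjusted p under 0.05, a limit that 7.02% of all tested genes met, 3.24% as higher and 3.79% as lower. The median log2 fold change was -0.08, with 4 genes higher and 5 lower, and that of all tested genes -0.02. H2-K2 stood near the limit, at place 55 of the 58 called genes by p. Its call was lost when its statistic was referred to a t distribution with 10 degrees of freedom (adjusted p = 0.82) and with Holm adjustment (adjusted p = 1).

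The authors' totals also differ widely between the genes. Divided by the length of all annotated exons, so that genes can be compared, H2-D1 stood highest with 5050 per kilobase and H2-K1 next with 3726, above 98.6% and 98.2% of the genes with a length. B2m had 1364 per kilobase, or 15.5% of H2-K1 and H2-D1 together. Below them came Tapbp with 386, Tap2 with 160, Erap1 with 141, H2-K2 with 123, Tap1 with 61.4 and Nlrc5 with 9.0 per kilobase, the last at the percentile 3.46. Retained introns can count into these lengths, and the totals are pooled over both groups, so no error can be given for this order. H2-K2 thus had an average total of 17.6 per library, against 912 for H2-K1 and 1085 for H2-D1, and held 0.755% of the total of all class I heavy chain genes. H2-K1 and H2-D1 together held 85.8%.

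The other class I heavy chain genes of the table, 13 genes and pseudogenes of the Q, T and M regions, had values on both sides of 0, and no member of the list passed the adjusted p (0 higher and 0 lower). An unadjusted p under 0.05 was found for 6 of the 13, of which 5 were higher, beside 7.02% of all tested genes. The list's median log2 fold change was 0.40. By the authors' deposited table H2-Q1 stood 2.61-fold higher, at 1.39 in log2 (0.56 to 2.21; adjusted p = 0.13). The pseudogene H2-T-ps stood at 1.45 (0.42 to 2.48; adjusted p = 0.31) and H2-Q4 at 0.79 (0.19 to 1.40; adjusted p = 0.37) by the authors' deposited table. The remaining 7 with p of 0.05 or above lay between -0.29 (H2-M3) and 0.85 (H2-Q2), with the nonclassical H2-T23, the mouse gene of Qa-1, at -0.13 and H2-Q7 at 0.09 by the authors' deposited table. H2-T10 and H2-T22, known for their binding to gamma-delta T cells, stood on opposite sides of 0. Their transcripts are 97.7% identical over 1376 aligned bases, with 106 gap bases left out. The authors' deposited table gives 1.18 (0.22 to 2.14) for H2-T10 and -0.71 (-1.29 to -0.13) for H2-T22, both with an adjusted p of 0.49, and the difference between them was not tested. H2-T10 and H2-T22 share 1124 windows of 50 bases, which is 31.7% of those of H2-T10 and 31.2% of those of H2-T22, so their counts are uncertain. H2-Q4, at 36.4%, and H2-T-ps, at 29.4% of windows shared, carry the same limit.

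**Figure D3:**
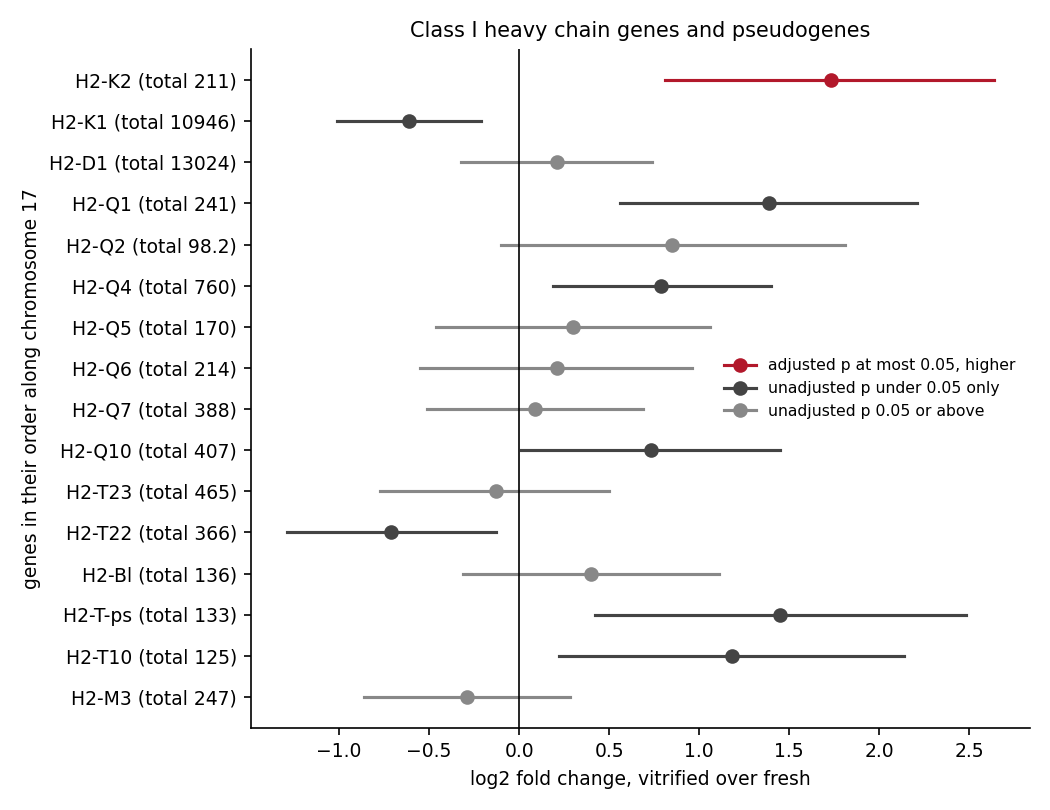
Log2 fold change with 95% interval (horizontal axis) of 16 class I heavy chain genes and pseudogenes in the authors' deposited table, from top to bottom in their order along chromosome 17. Intervals that do not reach 0 are found on both sides, with H2-K2, H2-Q1, H2-Q4, H2-Q10, H2-T-ps and H2-T10 above it and H2-K1 and H2-T22 below.

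As 1 family of 16 genes, the heavy chains lay farther from 0 than genes of like totals. Their median size of log2 fold change, without regard to sign, was 0.66, against 0.19 for all tested genes. For the 14 genes other than H2-K1 and H2-D1 it was 0.72 at a median standard error of 0.38, and the 6804 tested genes with totals in the same range had 0.20 at a standard error of 0.30. H2-K2 and H2-K1 are among the 16, and H2-K2 among the 14, and both were chosen with their fold changes in view. This is a description of genes that share sequence, chromosome and follicles, and it was not tested.

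**Figure D4:**
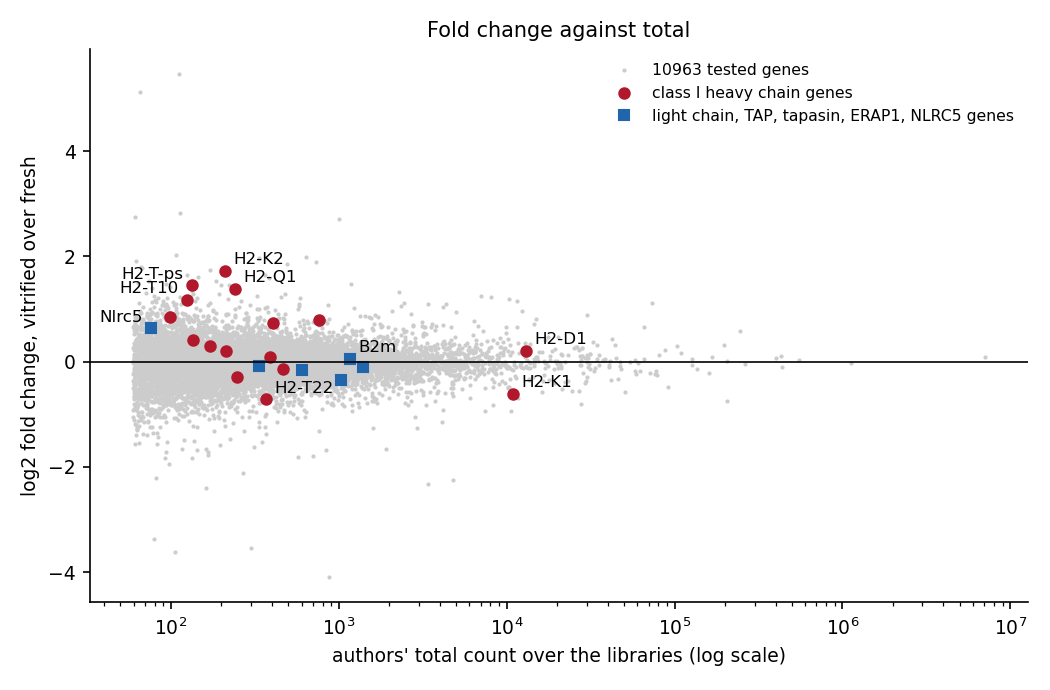
Log2 fold change (vertical axis) against the authors' total over the libraries (horizontal axis, log scale) for 10963 tested genes in grey, the 16 class I heavy chain genes as red circles and the 6 other antigen presentation genes as blue squares. The circles reach from -0.71 (H2-T22) to 1.73 (H2-K2), and the squares other than Nlrc5 lie between -0.35 and 0.06.

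The genes around H2-K2 and H2-K1 did not pass. H2-K2 lies between Vps52, a vesicle tethering gene 15.3 kb away from its midpoint with a log2 fold change of 0.08, and H2-K1, 21.4 kb away on the other side. The ribosomal protein gene Rps18 stood at 0.09, Rgl2 at 0.34, the prefoldin gene Pfdn6 at -0.37 and Wdr46 at 0.32 in the authors' deposited table. Beyond H2-K1, the Polycomb gene Ring1 stood at -0.21, the retinoid X receptor gene Rxrb at -0.19 and Gm20427 at -0.13 in the authors' deposited table. H2-Ke6, a steroid dehydrogenase gene that is no heavy chain despite its symbol, stood at 0.72 (-0.11 to 1.55) by the authors' deposited table, and the zinc transporter gene Slc39a7 at 0.42 (0.09 to 0.74; adjusted p = 0.42). Over the stretch of chromosome 17 from 33915899 to 37274484, 72 tested genes are neither heavy chains nor Tap1, Tap2 or Tapbp. Of these 72, 3 had an unadjusted p under 0.05, or 4.17%, all higher, and their median log2 fold change was -0.11. The 19 class I and peptide loading genes of the same stretch held 8 such genes, 6 higher and 2 lower. This is 42.1%, beside 7.04% of the 10841 tested genes with a position. The 8 include H2-K2 and H2-K1, which were chosen with their p-values in view, and heavy chain genes that share sequence. The difference from the other genes of the stretch was not tested.

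No partner of the pathway passed. Of 9 genes for peptide loading and folding 0 passed in either direction, with a median of -0.03 and intervals within 2-fold for 8 of them. The chaperone gene Canx, which holds new heavy chains, stood at -0.33 (-0.65 to -0.02; adjusted p = 0.66) by the authors' deposited table. Calr, at 0.14 (-0.24 to 0.53), and the ERp57 gene Pdia3, at 0.04 (-0.28 to 0.36), spanned 0 in the authors' deposited table. The 5 genes of the immunoproteasome and its activator, the form of the protease that cells make under interferon, included 0 that passed and 4 that stood lower, with a median of -0.46. Psme2 had -0.65 (-1.31 to 0.00; adjusted p = 0.72), Psmb8 -0.51 (-1.21 to 0.19) and Psmb10 -0.46 (-1.35 to 0.43) by the authors' deposited table, and Psme1 0.08 (-0.30 to 0.45). Their constitutive counterparts Psmb5, Psmb6 and Psmb7 lay between -0.17 and -0.09 in the authors' deposited table, all with intervals within 2-fold. The difference between these lists was not tested. Of 7 tested peptidases 0 passed, and Lap3, an aminopeptidase gene, stood at 0.49 (0.09 to 0.90; adjusted p = 0.50) by the authors' deposited table. The 5 tested genes of class I-like proteins, Cd1d1, Mr1, Fcgrt, Hfe and Ulbp1, lay between -0.08 and 0.24, and 0 passed. In these 5 lists Canx and Lap3 were the 2 of 29 tested genes with an unadjusted p under 0.05, or 6.90%, near the 7.02% of all tested genes.

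The regulators of the pathway held no call either. Of 7 tested partners of NLRC5 on the promoter 0 passed, and Creb1 stood 1.71-fold lower by the authors' deposited table, at -0.78 (-1.35 to -0.20; adjusted p = 0.35), while Nfya stood at 0.61 (-0.06 to 1.28) and Rfx5 at -0.04. Among 14 tested genes of interferon receptors and JAK, STAT and IRF factors 0 passed, with a median of -0.05 and intervals within 2-fold for 13. Jak1 had -0.35 (-0.65 to -0.05; adjusted p = 0.53), Stat2 0.42 (-0.02 to 0.86) and Irf1 0.09 (-0.39 to 0.57) by the authors' deposited table. Of 34 interferon-induced genes 11 were in the table, 0 of them passed and their median was 0.13. Bst2, a membrane protein gene that tethers viruses, stood at 0.58 (-0.07 to 1.22) by the authors' deposited table. The 10 genes of the NF-kappa-B pathway had a median of -0.02 and 0 calls. For its kinase genes the authors' deposited table lists 0.65 (0.09 to 1.21; adjusted p = 0.55) for Chuk and 0.52 (0.05 to 1.00; adjusted p = 0.61) for Ikbkb. The subunit genes lay on both sides of 0, with Relb at 0.57 (adjusted p = 0.72) and Rel at 0.38 (adjusted p = 0.81) by the authors' deposited table. Rela stood at -0.10, Nfkb2 at -0.23 and Nfkb1 at -0.47. Of 6 class II genes looked up, 1 was in the table, H2-DMa, with a total of 43.7 and no adjusted p. Creb1 and Jak1, both lower, and Chuk and Ikbkb, both higher, were the 4 of 31 tested regulators with an unadjusted p under 0.05, or 12.9%. With the 11 interferon-induced genes, of which 0 had one, these were 4 of 42, or 9.52%, beside 7.02% of all tested genes.

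**Figure D5:**
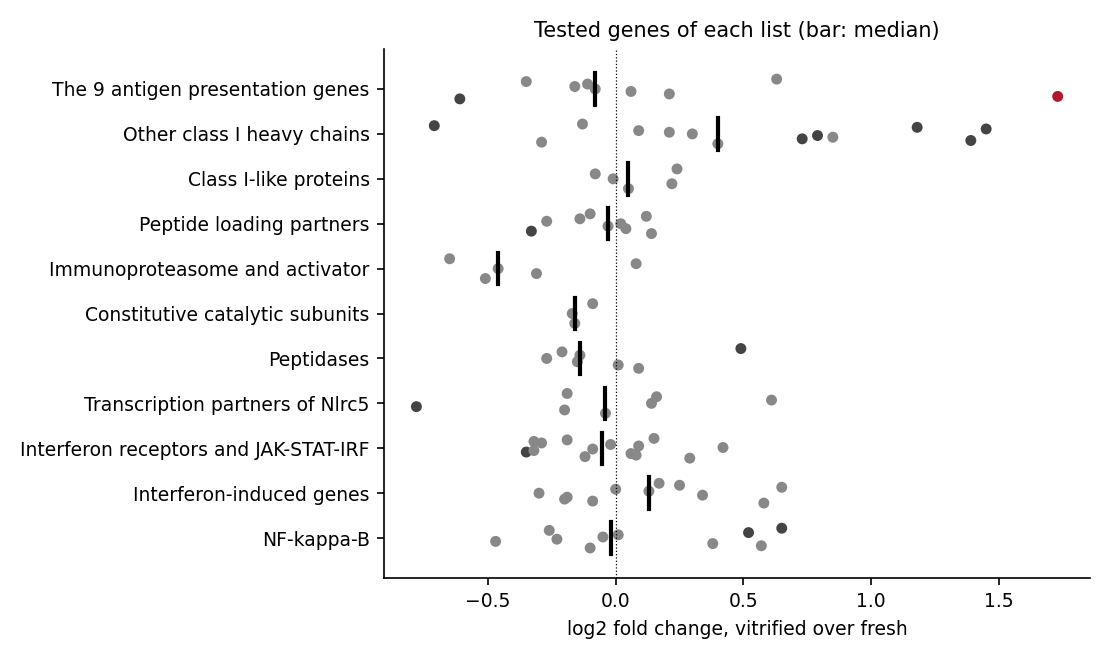
Log2 fold change (horizontal axis) of each tested gene in the 9 antigen presentation genes and 10 lists of the pathway, from the authors' deposited table, with black bars at the medians. The red point, H2-K2 at 1.73, is the only one past the adjusted p of 0.05, and the other class I heavy chains spread from -0.71 to 1.45 while the peptide loading partners lie between -0.33 and 0.14.

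Promoters of class I genes are known for short motifs that NF-kappa-B, IRF, CREB and NF-Y factors bind, and those of a heavy chain and of the light chain are shown here with these motifs. RefSeq promoter windows (GRCm38.p6, 250 bases before the start to 50 after, the first listed where a gene has several) were matched for 6 of the 9 genes, leaving H2-K2, Tap2 and Nlrc5. Motifs were searched on both strands. The IRF core AANNGAAA was found in 4 of the 6 (H2-K1, H2-D1, B2m and Erap1) and in 24.2% of all 27025 promoters. The degenerate NF-kappa-B consensus was found in 3 of the 6 (H2-K1, H2-D1 and B2m) and in 8.18% of all. TGACG, part of the CREB site, was found in 4 of the 6 (H2-K1, H2-D1, B2m and Tap1; 21% of all), and CCAAT, the NF-Y site, in 5, these 4 and Tapbp (37.9% of all). In the 160 bases before the start, printed 5′ to 3′ with these motifs in capitals, H2-K1 (chr17:34000348-34000507, minus strand) and B2m (chr2:122147527-122147686, plus strand) each hold all 4 motifs. In both, the IRF core comes before TGACG, which comes before ATTGG, the CCAAT box on the opposite strand. The kappa-B match stands before the IRF core in H2-K1, at -111 against -90 bases from the start, and after it in B2m, at -126 against -137. Among 9 other class I heavy chain promoters, all 9 held the IRF core and 8 CCAAT, but 5 held the kappa-B consensus and 4 TGACG. H2-Q2, H2-Q10, H2-T-ps and H2-T23 held neither of these last motifs.
H2-K1 promoter: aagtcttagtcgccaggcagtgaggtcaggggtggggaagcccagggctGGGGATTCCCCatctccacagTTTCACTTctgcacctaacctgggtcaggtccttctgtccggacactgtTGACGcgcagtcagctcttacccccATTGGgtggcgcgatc
B2m promoter: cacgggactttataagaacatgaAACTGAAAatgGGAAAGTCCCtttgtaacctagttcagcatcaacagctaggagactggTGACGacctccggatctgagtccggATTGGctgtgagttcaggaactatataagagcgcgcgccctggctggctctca
A match of letters is a description and not a bound site. H2-K1 and H2-D1 hold the same 4 motifs, with log2 fold changes of -0.61 and 0.21 in the authors' deposited table. Neither the difference between these values nor a part of the motifs in it was tested.

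Markers of the cells in a follicle were looked at beside these genes. Granulosa markers had a median log2 fold change of -0.02 over 7 tested genes and 0 past the adjusted p. Of 20 immune cell markers only the lysozyme gene Lyz2 was in the table, at -1.05 (-2.05 to -0.05; adjusted p = 0.67) by the authors' deposited table. All 6 tested theca markers were higher (median 1.33), all 5 tested oocyte markers higher (median 0.58) and all 5 tested endothelial markers lower (median -0.81), with 0 past the adjusted p in each list. At an unadjusted p under 0.05 there were 3 theca, 0 oocyte and 0 endothelial markers among these, and Fshr (0.67) and Fst (-0.82) among the granulosa markers in the authors' deposited table. For comparison, 5126 of the 10963 tested genes stood higher and 5837 lower. The same limit on p was met by 7.02% of tested genes, with 3.24% on the higher side and 3.79% on the lower side. The theca markers were uneven, with Insl3 at 2.70, Star at 1.60 and Aldh1a1 at 1.19 by the authors' deposited table. Lhcgr at 0.08 (-1.20 to 1.37), Cyp11a1 at 0.47 (-1.08 to 2.03) and Cyp17a1 at 1.47 (-0.04 to 2.97) spanned 0. The oocyte marker Dazl, which has a total of 44.3 and no adjusted p, went the other way from the tested ones, at -2.14 (-3.56 to -0.73) by the authors' deposited table. Endothelial and theca cells carry class I molecules as well, and the part of these cells in the values of H2-K1, H2-K2 and the other heavy chains was not tested.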

How the data were processed

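RNA of 12 single follicles, 6 fresh and 6 vitrified, was compared by the authors. Per the submitters' processing notes, the build was mm10 and the tools were DESeq2, HISAT2, Bowtie2 and Partek, whose roles are not stated. How reads were counted, and whether by strand, was not given in the sources used here. Per the file headers, the deposited values begin with a pooled signal, the total count of a gene over all libraries (whole within 0.001 for 0.237% of genes). Fold changes, also as log2, and p-values before and after step-up adjustment were deposited beside it. The authors deposited no adjusted p for 843 genes, whose totals are at most 59.4. The sum of the totals was 23783958 and the median 273 per gene, and the depth of a single library is unknown.

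Groups came from the sample titles. The authors' test was used, with calls at an adjusted p of at most 0.05, since the table holds no value per follicle. A standard error (median 0.29 on the log2 scale) and a 95% interval were derived from each log2 fold change and its p, taken as a two-sided normal test. These errors hold counting error and the spread between follicles together. The derivation and the adjustments were run on simulated normal values drawn with these same errors. That run checks the arithmetic and cannot show whether the errors hold for follicles. The genes and lists were chosen with earlier results of these data known. The text names all 9 genes, the 5 nearest tested genes on each side of H2-K1 and H2-K2, and up to 4 genes of each list with the lowest p. Genes named beyond this rule (H2-T22, H2-Q10, H2-Q2, H2-M3, H2-T23, H2-Q7, Pdia3, Psme1, Fcgrt, Rfx5, Irf1, Rela, Nfkb1, Nfkb2, H2-DMa and the cell type markers) were chosen after their values were seen. GENCODE mouse release 21 holds 11663 of the 11806 symbols, and transcripts were aligned with Biopython 1.88. Python 3.11.15 with SciPy 1.17.1 and pandas 2.3.3 was used.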

Additional observations from a re-analysis of the deposited data

How the results depend on the processing

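The call of H2-K2 and the number of calls over all genes (58) were recomputed from the deposited p-values under 5 alternatives. With no filter on totals 58 genes passed, and with a total of at least 120 there were 57, H2-K2 among them both times (adjusted p = 0.046 and 0.037). With Holm adjustment 15 genes and 0 of the 9 antigen presentation genes passed. With p taken from a t distribution (10 degrees of freedom), 0 genes and 0 of the 9 passed (lowest adjusted p = 0.064), while at an unadjusted p under 0.05 there were 498 and 2, against 770 and 2 by the deposited p. With a fold change of at least 2 required as well, 35 genes passed, H2-K2 among them. Centring on the median of all tested genes (-0.02) changed the sign of 0 of the 9 genes. Of the 18 shares of shared sequence recomputed with longer windows, 14 moved. No paired analysis was possible because the table holds no column per follicle, and for the same reason leaving out each replicate was not run. Of the 9 genes, Nlrc5 had the lowest total (76.5) and the largest standard error (0.52 in log2).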
